A study of Homo sapiens with 4 samples.

Results

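The annexins are calcium-dependent membrane-binding proteins, and their transcripts were measured in U937 cells, a long-cultured human line of monocytic leukemia. The members were chosen by symbol: ANXA1, ANXA2, ANXA3, ANXA4, ANXA5, ANXA6, ANXA7 and ANXA11, which made 8 genes. Of these, 7 were among the 17656 genes of the deposited table, and ANXA3 was not in it and is not analysed here. Bulk RNA of 4 samples was sequenced. By their labels 2 were sh-ZNF217, that is, knockdown of the zinc finger gene ZNF217, and the other 2 were NC, the control. The study's methods list the U937 control samples as having had no treatment. Elsewhere the study uses NC for a negative control hairpin and a nontargeting guide RNA, so the kind of control is uncertain. The study's text calls its U937 RNA sequencing a knockdown in one place and a CRISPR-Cas9 knockout in another, and the labels do not say whether a single hairpin or clone was sampled. No label states that replicates were separate cultures, so the p-values reflect spread between libraries that may be technical only.

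Values are given in TPM, the transcripts of a gene per fixed total of the library's transcripts after division by length. Groups were compared with limma on log2(TPM + 1), libraries labelled sh-ZNF217 minus NC, and p-values were adjusted over the 14582 genes tested. The call of a change needed an adjusted p below 0.05 together with a log2 fold change beyond 0.5 in either direction. The targeted gene came first as a check of the labels. ZNF217 had 35.8 and 35.0 TPM in libraries labelled sh-ZNF217, against 36.1 and 36.7 TPM in the NC libraries (log2 fold change -0.04, 95% interval -0.22 to 0.14, limma adjusted p = 0.740). Its level did not mark the libraries labelled sh-ZNF217, so every direction below is that of a label. The libraries were alike in total (998932 to 999282 TPM), and the sequencing depth was unknown, since TPM keeps no record of reads. All 12 markers of U937 identity were listed, 10 of them at 1 TPM or more in every library, with MPO, a primary granule enzyme, near 0. Their summed level was 6862 and 6764 TPM in libraries labelled sh-ZNF217, against 4308 and 4348 TPM in NC. Most of it was LYZ, at 5511 and 5328 TPM in libraries labelled sh-ZNF217 and 3270 and 3256 TPM in NC. Of 11 tested, 5 were called higher (ITGAM and LYZ among them) and 0 lower, against 6.26% and 2.46% of all tested genes. Mitochondrially encoded genes took 12.5% and 12.7% of all TPM in libraries labelled sh-ZNF217, against 9.98% and 10.8% in NC. Without the mitochondrially encoded genes ANXA1, the annexin with the largest difference, had a log2 fold change of 1.51, against 1.47 with them. All 11 tested U937 markers had positive log2 fold changes, as had the annexins. Those of CD33, which overlapped between the groups, and of SPI1 were small (0.06 and 0.12). The part of marker levels in the results was not tested. Of other cell types, T and NK cell markers had 2 of 7 listed (CD2 and NKG7), with sums of 101 and 110.3 TPM in libraries labelled sh-ZNF217 and of 86.3 and 69.1 TPM in NC, and CD3D, CD3E and CD3G were not in the table. NKG7 made up most of these sums, at 96.9 and 105 TPM in libraries labelled sh-ZNF217 and 85.2 and 67.5 TPM in NC. It was not called (limma adjusted p = 0.0699). CD2 was called higher, at 3.77 and 5.33 TPM in libraries labelled sh-ZNF217 against 1.12 and 1.68 TPM in NC (limma adjusted p = 0.0308). B cell markers had 3 of 5 listed, with sums of 4.45 to 7.06 TPM in libraries labelled sh-ZNF217 and of 5.51 to 10.7 TPM in NC. Among them PAX5 was called lower, at 1.87 and 1.79 TPM in libraries labelled sh-ZNF217 against 3.72 and 4.13 TPM in NC (limma adjusted p = 0.0458). Erythroid and megakaryocyte markers had 1 of 10 listed, PPBP at 1.07 to 2.57 TPM in libraries labelled sh-ZNF217 and at 1.59 to 2.93 TPM in NC, and epithelial and fibroblast markers had 0 of 8.

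As background, an annexin binds phosphatidylserine and other acidic lipids through a conserved calcium-binding core, and its variable N-terminal tail sets its partners. Several annexins dock small EF-hand proteins of the S100 and penta-EF-hand families on that tail. In monocytes and macrophages annexins are known for damping inflammation (ANXA1), for plasminogen binding at the cell surface (ANXA2) and for shielding exposed phosphatidylserine (ANXA5). Many members also gather at torn membranes during repair.

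Of the 7 annexins tested, 1 was called changed, which was ANXA1, and it was higher in libraries labelled sh-ZNF217. Over all tested genes 8.72% were called changed, 6.26% higher and 2.46% lower. At an adjusted p below 0.05 and any fold, 3 of the 7 were higher (ANXA1, ANXA2 and ANXA5) and 0 were lower, against 9.77% and 7.11% of all tested genes. Under plain empirical Bayes only ANXA1 stayed below 0.05 (ANXA2 0.0632, ANXA5 0.0624). In 5 of the 7 both libraries labelled sh-ZNF217 lay above both NC libraries, and in 0 below, against 33.5% and 28.6% of all tested genes. The remaining members, ANXA6 and ANXA7, overlapped between the groups. All 7 log2 fold changes were positive in the fit of all 4 libraries (ANXA6 was -0.0096 without replicate 2 of the libraries labelled sh-ZNF217), as were 52.5% of all those tested, and their median was 0.36, against 0.02 over all tested genes. In bulk RNA a different share of expressing cells cannot be told apart from a different amount of RNA per cell.

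**Figure D1:**
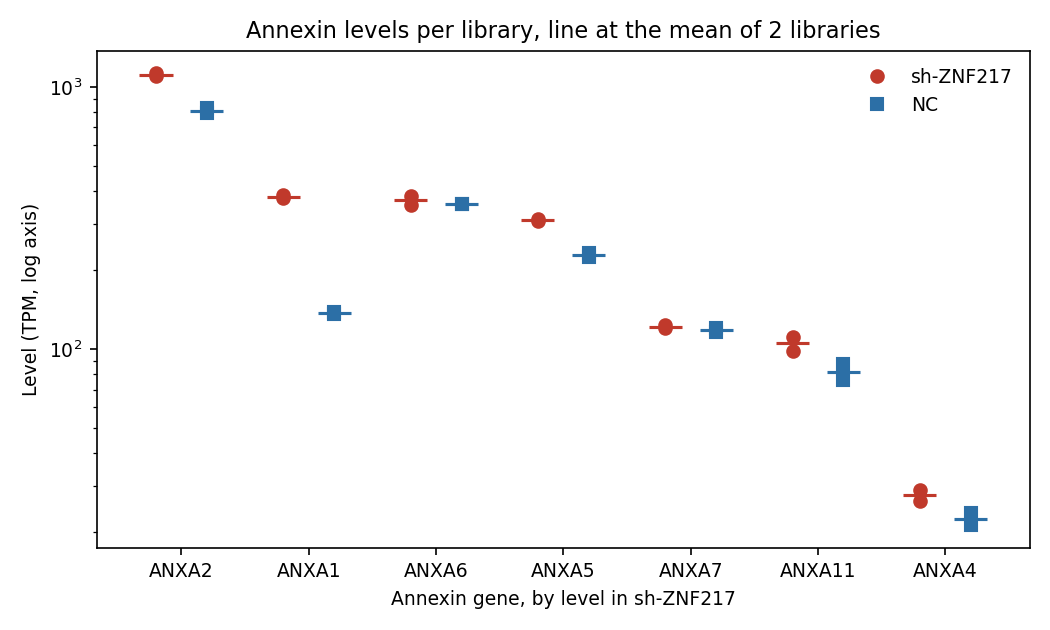
Level of each annexin in TPM (log axis) in the 2 libraries labelled sh-ZNF217 (red circles) and the 2 NC libraries (blue squares), with lines at group means. ANXA1 stands at 375 to 386 TPM in libraries labelled sh-ZNF217 and at 136 to 138 TPM in NC, while ANXA6 and ANXA7 overlap.

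ANXA1 encodes the annexin once called lipocortin, a glucocorticoid-inducible protein that inhibits phospholipase A2 and signals through formyl peptide receptors. The gene (ENSG00000135046) lies on chromosome 9 from 73151865 to 73170393, on the plus strand of hg38. Its level was 386 and 375 TPM in libraries labelled sh-ZNF217, against 136 and 138 TPM in the NC libraries. The groups were far apart and the libraries within each nearly level. Group means were 381 ± 7.74 TPM in libraries labelled sh-ZNF217 and 137 ± 1.74 TPM in NC (SD, n = 2 each), a ratio of 2.78. ANXA1 rose, with a log2 fold change of 1.47 (SE 0.049, 95% interval 1.35 to 1.59, limma adjusted p = 0.000387). By signed log2 fold change, highest first, it ranked 132 of the 14582 tested genes, above 99.1% of them, and by p it ranked 8.

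ANXA2, a partner of S100A10 in a membrane complex that captures plasminogen, was the most abundant member. The gene (ENSG00000182718) lies on chromosome 15 from 60347134 to 60402883, on the minus strand. It had 1125 and 1097 TPM in libraries labelled sh-ZNF217, against 793 and 831 TPM in the NC libraries. The groups did not overlap, and the gap between them was wider than the gap within either. Its log2 difference was 0.45 (SE 0.047, 95% interval 0.34 to 0.57, limma adjusted p = 0.00615), under the minimum of 0.5 for a call. In TPM the difference of ANXA2 (299 TPM between group means) was larger than that of ANXA1 (244 TPM), and the level of ANXA2 in NC was the higher of the 2.

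ANXA5, the phosphatidylserine-binding annexin that serves as the standard stain for apoptotic cells, lies on chromosome 4 from 121667946 to 121696995 on the minus strand (ENSG00000164111). It had 308 and 312 TPM in libraries labelled sh-ZNF217, against 225 and 232 TPM in the NC libraries. Here too both libraries labelled sh-ZNF217 were above both NC libraries. The log2 fold change of 0.44 (SE 0.048, 95% interval 0.32 to 0.56, limma adjusted p = 0.00693) was also short of the minimum of 0.5. The ratio of ANXA5 to ANXA2 was 0.274 and 0.285 in libraries labelled sh-ZNF217, against 0.284 and 0.279 in NC, so these members kept nearly the same proportion in all 4 libraries.

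The promoters of these 3 members are shown because ANXA1, ANXA2 and ANXA5 were those with an adjusted p below 0.05, and they differ in base composition. Each window runs from 250 bases before to 50 bases after the start in RefSeq (GRCh38.p14), 5′ to 3′ on the gene's strand. Capitals mark the GC box (GGGCGG), the TATA box (TATAAA), the AP-1 site (TGANTCA) and the core of a PU.1 site (GAGGAA), each searched on both strands. A match describes the letters and is not evidence that a factor binds.
ANXA1, chr9:73151615-73151914, plus strand: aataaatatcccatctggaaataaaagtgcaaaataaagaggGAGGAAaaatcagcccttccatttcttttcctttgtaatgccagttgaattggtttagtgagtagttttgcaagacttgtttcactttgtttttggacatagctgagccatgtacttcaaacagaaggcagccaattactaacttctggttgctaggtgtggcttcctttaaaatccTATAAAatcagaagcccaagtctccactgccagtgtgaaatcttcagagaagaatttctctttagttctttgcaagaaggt
ANXA2, chr15:60397937-60398236, minus strand: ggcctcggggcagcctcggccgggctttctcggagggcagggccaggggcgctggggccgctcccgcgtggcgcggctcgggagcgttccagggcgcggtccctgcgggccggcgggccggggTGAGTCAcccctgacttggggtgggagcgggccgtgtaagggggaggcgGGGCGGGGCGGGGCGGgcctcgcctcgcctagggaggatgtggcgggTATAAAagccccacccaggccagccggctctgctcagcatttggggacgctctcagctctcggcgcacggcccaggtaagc
ANXA5, chr4:121696931-121697230, minus strand: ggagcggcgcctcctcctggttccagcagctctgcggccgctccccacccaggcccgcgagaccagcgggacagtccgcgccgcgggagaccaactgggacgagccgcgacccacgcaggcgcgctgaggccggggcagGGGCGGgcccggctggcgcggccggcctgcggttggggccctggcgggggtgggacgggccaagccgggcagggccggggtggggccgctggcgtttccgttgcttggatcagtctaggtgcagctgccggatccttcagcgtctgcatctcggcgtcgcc

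The ANXA1 window had a GC content of 37.7%, and 7.57% of 35116 RefSeq promoters were lower, the median being 58.7%. It held 1 TATA box and 1 PU.1 core and 0 GC boxes. The ANXA2 window (GC 76.0%) held 3 GC boxes in a run whose copies overlap, 1 TATA box and 1 AP-1 site, and the ANXA5 window (GC 76.3%) held 1 GC box alone of these motifs. Among all promoters of that length, 45.0% held a GC box, 11.5% a TATA box, 7.71% an AP-1 site and 27.9% a PU.1 core. The MYB core (AACNG, in 77.2% of all promoters) and the E-box (CACGTG, in 7.26%) were searched too and are not in capitals. ANXA1 held 2 MYB cores, ANXA2 held 0 and ANXA5 held 3, and the E-box was in 0 of these 3 windows.

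Reads of ANXA2 share sequence with its processed pseudogene ANXA2P2 (chromosome 9, 33624274 to 33625293), so their values are uncertain. Of 1020 aligned coding bases 1004 (98.4%) were identical, and 59.2% of the 50-base windows of ANXA2P2 were identical to an ANXA2 transcript, as were 31.2% of its 100-base windows. Bases 163 to 222 of the coding sequence in GENCODE 44 transcripts, where 5 differences (capitals) fall close together, are shown. Within the aligned coding bases only reads over such letters can be told apart.
ANXA2: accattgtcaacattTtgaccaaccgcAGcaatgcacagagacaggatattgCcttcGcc
ANXA2P2: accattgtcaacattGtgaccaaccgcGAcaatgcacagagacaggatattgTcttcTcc

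ANXA2P2 was listed at 81.0 and 88.8 TPM in libraries labelled sh-ZNF217, against 61.9 and 67.0 TPM in the NC libraries (log2 fold change 0.39, limma adjusted p = 0.0273, not called). The ratio of ANXA2 to ANXA2P2 was 13.9 and 12.4 in libraries labelled sh-ZNF217, against 12.8 and 12.4 in NC, so the ranges overlapped. How the authors' counting divided these reads is not given in the sources used here.

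ANXA11 and ANXA4 were higher in both libraries labelled sh-ZNF217 but did not pass the test. ANXA11, a long-tailed annexin that binds PDCD6 and S100A6 (chromosome 10, 80150889 to 80205572, minus strand, ENSG00000122359), had 112 and 98.5 TPM in libraries labelled sh-ZNF217, against 87.7 and 75.9 TPM in the NC libraries. Its groups were apart, but the spread within each group was about as wide as the gap between them. Its log2 difference was 0.36 (SE 0.10, 95% interval 0.11 to 0.60, limma adjusted p = 0.0599). ANXA4, a membrane-aggregating annexin of secretory epithelia (chromosome 2, 69644425 to 69827112, plus strand, ENSG00000196975), was the lowest of the 7. It had 26.3 and 29.0 TPM in libraries labelled sh-ZNF217, against 21.3 and 23.6 TPM in the NC libraries, with a log2 fold change of 0.29 (SE 0.10, 95% interval 0.04 to 0.53, limma adjusted p = 0.102).

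ANXA6 and ANXA7 gave the smallest differences. ANXA6, whose core carries additional repeats and which acts in cholesterol transport and endocytosis (chromosome 5, 151100706 to 151157815, minus strand, ENSG00000197043), had 355 and 385 TPM in libraries labelled sh-ZNF217, against 356 and 359 TPM in the NC libraries. One library labelled sh-ZNF217 was just below both NC libraries and the other above them. The difference on the log2 scale was 0.05 (SE 0.057, 95% interval -0.09 to 0.19, limma adjusted p = 0.599). ANXA7, once named synexin for its fusion of granule membranes (chromosome 10, 73375101 to 73414076, minus strand, ENSG00000138279), had 123 and 120.2 TPM in libraries labelled sh-ZNF217, against 116 and 120.3 TPM in the NC libraries. These groups overlapped as well, with a difference of 0.04 on the log2 scale (SE 0.055, 95% interval -0.10 to 0.18, limma adjusted p = 0.654). The intervals of ANXA6 and ANXA7 left out changes as large as the call minimum in either direction. ANXA7 shares exonic positions with 1 further annotated gene that was not in the table, and the use of strand is not given in the sources used here.

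**Figure D2:**
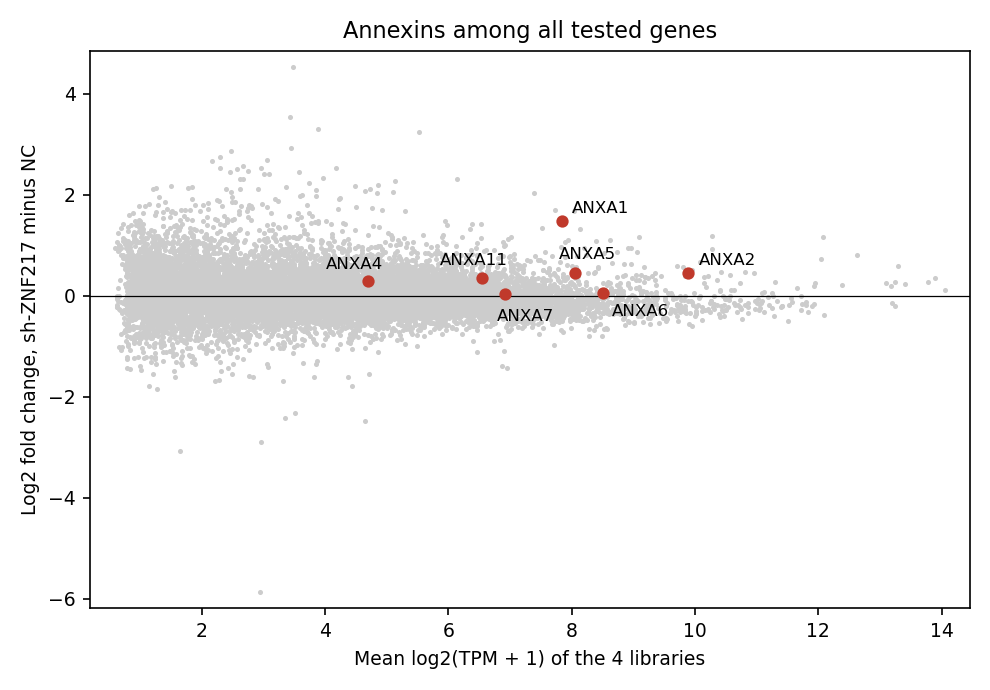
Log2 fold change (libraries labelled sh-ZNF217 minus NC) of every tested gene against its mean log2(TPM + 1) over the 4 libraries, with the 7 annexins in red. ANXA1 (1.47) lies near the upper edge for genes of its level, and ANXA6 (0.05) and ANXA7 (0.04) lie on the zero line.

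The order of the annexins by level differed between the groups in the place of ANXA1. In the libraries labelled sh-ZNF217 the mean levels were ANXA2 (1111 TPM), ANXA1 (381 TPM), ANXA6 (370.04 TPM), ANXA5 (310.3 TPM), ANXA7 (122 TPM), ANXA11 (105 TPM) and ANXA4 (27.6 TPM). In NC they were ANXA2 (812 TPM), ANXA6 (358 TPM), ANXA5 (228 TPM), ANXA1 (137 TPM), ANXA7 (118 TPM), ANXA11 (81.8 TPM) and ANXA4 (22.4 TPM). ANXA1 was thus second in libraries labelled sh-ZNF217, where it overlapped with ANXA6, and behind ANXA6 and ANXA5 in NC. All other neighbours in either order were apart in both libraries of the group. The ratio of ANXA1 to ANXA2 was 0.343 and 0.342 in libraries labelled sh-ZNF217, against 0.171 and 0.166 in NC. The ratio of ANXA1 to ANXA6 was 1.09 and 0.975 in libraries labelled sh-ZNF217, against 0.380 and 0.385 in NC.

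The 7 annexins together summed to 2436 and 2417 TPM in libraries labelled sh-ZNF217, against 1735 and 1779 TPM in the NC libraries. These sums were 0.244% and 0.242% of all TPM in libraries labelled sh-ZNF217, against 0.174% and 0.178% in NC, a ratio of means of 1.38. The sum is given as a description with no p, and an exact permutation test of 2 against 2 libraries could not go below 0.333 (two-sided). Of the difference of 669 TPM, ANXA2 made up 44.7%, ANXA1 36.5% and ANXA5 12.2%. Without ANXA1 the sums were 2049.9 and 2042 TPM in libraries labelled sh-ZNF217 and 1599.9 and 1641 TPM in NC, a ratio of 1.26. ANXA1 held 15.9% and 15.5% of the annexin sum in libraries labelled sh-ZNF217, against 7.81% and 7.75% in NC. ANXA6 held 14.6% and 15.9% in libraries labelled sh-ZNF217, against 20.5% and 20.2% in NC, while ANXA2 held 45.4% to 46.2% in libraries labelled sh-ZNF217 and 45.7% to 46.7% in NC.

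**Figure D3:**
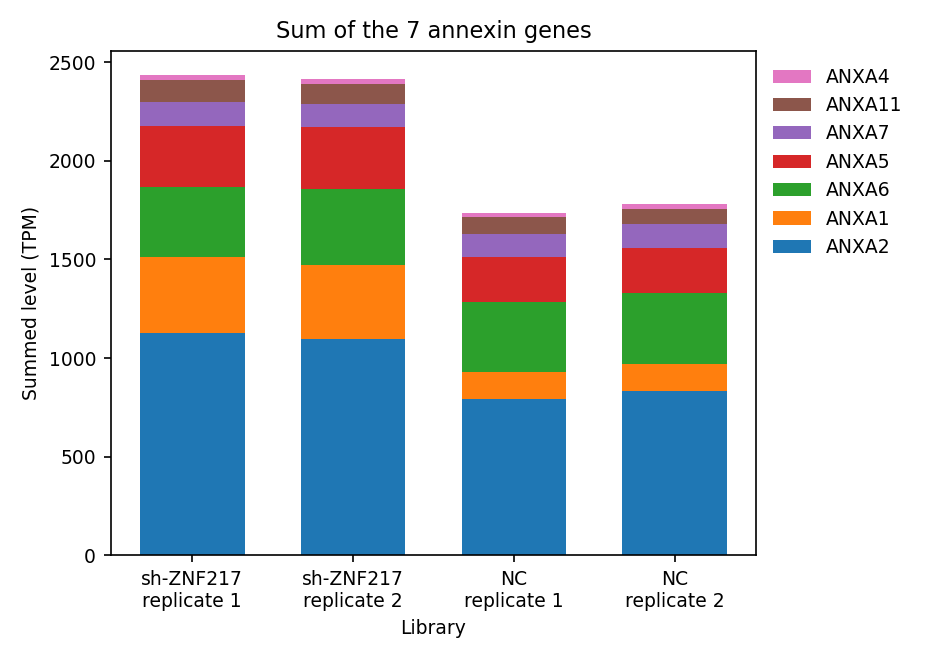
Summed level of the 7 annexins (TPM, linear axis from 0) in each library, stacked by gene. The bars of the libraries labelled sh-ZNF217 reach 2436 and 2417 TPM and those of NC 1735 and 1779 TPM, and the ANXA1 layer makes up 15.5% to 15.9% of the bar in libraries labelled sh-ZNF217 and 7.75% to 7.81% in NC.

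Of the other annexin genes, only ANXA9 was in the table, at 1.37 and 1.23 TPM in libraries labelled sh-ZNF217 against 1.33 and 0.791 TPM in NC (log2 fold change 0.17, limma adjusted p = 0.691), with overlapping groups. ANXA8, ANXA8L1, ANXA10 and ANXA13 were not in it.

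Small calcium sensors of the S100 and penta-EF-hand families, which hold most of the known annexin-docking proteins, came next, and all 12 listed were tested. This list and those below were chosen with earlier results of these data known. Of these, 2 were called higher, S100A10 and GCA, and 0 lower, against 6.26% and 2.46% of all tested genes. At any fold 6 were higher at an adjusted p below 0.05, against 9.77% of all tested genes, but under plain empirical Bayes only S100A10 (0.0421) and GCA (0.0370) stayed below it. The median log2 fold change was 0.43. S100A10, the fixed partner of ANXA2 on which plasminogen binding depends, had 108 and 105 TPM in libraries labelled sh-ZNF217, against 68.9 and 68.1 TPM in the NC libraries. It rose by a log2 fold change of 0.63 (SE 0.057, 95% interval 0.49 to 0.77, limma adjusted p = 0.00487). The ratio of ANXA2 to S100A10 was 10.4 in both libraries labelled sh-ZNF217, against 11.5 and 12.2 in NC, so the docking partner was the less abundant transcript in every library. GCA, or grancalcin, a penta-EF-hand protein of phagocytes listed for its family, rose as well, with 26.8 and 24.9 TPM in libraries labelled sh-ZNF217 against 13.3 and 13.1 TPM in NC (log2 fold change 0.92, limma adjusted p = 0.00597).

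S100A11, which binds the tail of ANXA1, had 1315 and 1265 TPM in libraries labelled sh-ZNF217, against 1016 and 986 TPM in NC (log2 fold change 0.37, limma adjusted p = 0.00933). That difference was under the call minimum, and the ratio of ANXA1 to S100A11 was 0.294 and 0.297 in libraries labelled sh-ZNF217, against 0.133 and 0.140 in NC. S100A4, another partner of ANXA2, had 1587 and 1622 TPM in libraries labelled sh-ZNF217, against 1188 and 1142 TPM in NC (log2 fold change 0.46, limma adjusted p = 0.00528). S100A6, a partner of ANXA2 and ANXA11, had 836 and 772 TPM in libraries labelled sh-ZNF217, against 668 and 562 TPM in NC (log2 fold change 0.39, limma adjusted p = 0.0431). S100A6 and S100A4 were thus also higher in both libraries labelled sh-ZNF217 without reaching the call minimum. S100P had 164 and 142 TPM in libraries labelled sh-ZNF217, against 119.6 and 98.1 TPM in NC, just short of the minimum at a log2 difference of 0.49 (limma adjusted p = 0.0430).

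PDCD6, the penta-EF-hand calcium sensor also called ALG-2 that binds ANXA7 and ANXA11, had 79.5 and 80.7 TPM in libraries labelled sh-ZNF217, against 88.4 and 96.3 TPM in NC. Its log2 fold change was -0.20 (limma adjusted p = 0.0951), and it was lower in both libraries labelled sh-ZNF217 without passing the test. The ratio of ANXA11 to PDCD6 was 1.40 and 1.22 in libraries labelled sh-ZNF217, against 0.991 and 0.788 in NC. The ratio of ANXA7 to PDCD6 was 1.55 and 1.49 in libraries labelled sh-ZNF217, against 1.31 and 1.25 in NC. Both ratios were apart between the groups, although neither ANXA7 nor ANXA11 nor PDCD6 was called on its own, and ANXA7 overlapped. For levels of single genes, groups were apart in 33.5% (higher) and 28.6% (lower) of all tested genes. PEF1, the dimer partner of PDCD6, and SRI (sorcin), which binds ANXA7, had log2 fold changes of -0.13 and 0.07 (limma adjusted p = 0.307 and 0.642). S100A12, S100A13 and S100B were low, between 2.39 and 13.4 TPM, and overlapped between the groups, with log2 fold changes of 0.96, 0.51 and 0.03 (limma adjusted p = 0.191, 0.370 and 0.955).

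**Figure D4:**
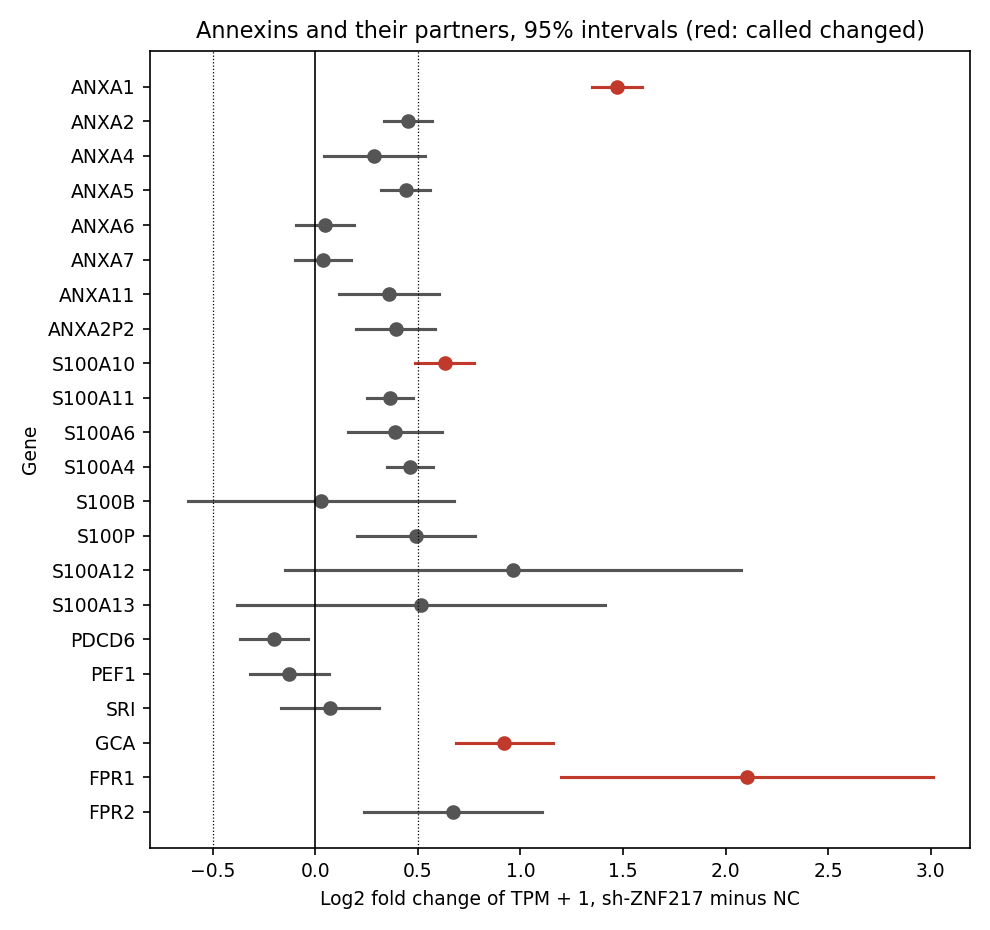
Log2 fold change (libraries labelled sh-ZNF217 minus NC) with 95% intervals of the annexins, ANXA2P2, the S100 and penta-EF-hand proteins and the tested formyl peptide receptors, red where called changed, with dotted lines at the call minimum of 0.5 in each direction. ANXA1, S100A10, GCA and FPR1 are the 4 called genes, and ANXA2 (0.45) and ANXA5 (0.44) end short of the line.

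Formyl peptide receptors are G protein-coupled receptors of phagocytes that bind bacterial peptides, and FPR2 and FPR1 also bind ANXA1 and its N-terminal peptides. FPR1 had 10.7 and 9.19 TPM in libraries labelled sh-ZNF217, against 2.68 and 0.749 TPM in the NC libraries. It rose by a log2 fold change of 2.10 (95% interval 1.20 to 3.01, limma adjusted p = 0.0200), a call that was lost when either library labelled sh-ZNF217 was left out (0.101 and 0.0813 for the lack of replicate 1 and of replicate 2) or under plain empirical Bayes (adjusted p = 0.0705). FPR2 had 4.91 and 5.07 TPM in libraries labelled sh-ZNF217, against 2.63 and 2.90 TPM in NC (log2 fold change 0.67, limma adjusted p = 0.0534), and narrowly missed the threshold. FPR3 was below the level needed for a test, at 1.83 and 0.625 TPM in libraries labelled sh-ZNF217 and 0.207 and 0.189 TPM in NC.

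ANXA1 is induced by glucocorticoids in many cells and acts on the release of arachidonic acid, so the genes of both routes were read beside it. Of the glucocorticoid receptor and its textbook targets, 9 of 10 listed were tested, 4 were called higher and 0 lower (6.26% and 2.46% of all tested genes), with a median log2 fold change of 0.49. SGK1, a kinase of ion transport, rose, with 55.6 and 49.2 TPM in libraries labelled sh-ZNF217 against 23.7 and 26.1 TPM in NC (log2 fold change 1.04, limma adjusted p = 0.00488). TSC22D3, or GILZ, had 21.8 and 21.3 TPM in libraries labelled sh-ZNF217, against 8.70 and 10.8 TPM in NC (log2 fold change 1.08, limma adjusted p = 0.00858). Without replicate 1 of the libraries labelled sh-ZNF217 the adjusted p of TSC22D3 was 0.0555, and without replicate 2 it was 0.0537. ZFP36, which destabilises cytokine mRNAs, rose by 0.74 on the log2 scale (limma adjusted p = 0.00528). DUSP1, a MAP kinase phosphatase, was called at 0.73 (limma adjusted p = 0.0482), but the call was lost in 9 of 12 alternatives, each of the 4 left-out libraries among them (adjusted p = 0.0835 to 0.175). The receptor itself, NR3C1, had 30.3 and 32.9 TPM in libraries labelled sh-ZNF217, against 27.1 and 25.5 TPM in NC (log2 fold change 0.26, limma adjusted p = 0.101). FKBP5, a chaperone and sensitive target of the receptor, overlapped between the groups (-0.06, limma adjusted p = 0.661), and PER1 (-0.37, limma adjusted p = 0.110) and KLF9 (0.03, limma adjusted p = 0.936) were not called either. No steroid treatment is named in the labels.

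Of phospholipase A2 and eicosanoid genes, 9 of 16 listed were tested, 3 were called higher and 0 lower (6.26% and 2.46% of all tested genes), with a median log2 fold change of 0.41. ALOX5AP, the activating protein of leukotriene synthesis, had 174 and 196 TPM in libraries labelled sh-ZNF217, against 82.6 and 86.0 TPM in NC, and rose by 1.12 on the log2 scale (limma adjusted p = 0.00222). TBXAS1, thromboxane synthase, had 98.7 and 104 TPM in libraries labelled sh-ZNF217, against 59.1 and 58.6 TPM in NC, and rose by 0.77 on the log2 scale (limma adjusted p = 0.00328). PTGS2, the inducible cyclooxygenase, was called at 1.05 (limma adjusted p = 0.0413), with 3.32 and 2.57 TPM in libraries labelled sh-ZNF217 against 0.724 and 1.07 TPM in NC. That call was lost when any 1 of the 4 libraries was left out (adjusted p = 0.0684 to 0.161). PLA2G4A, the cytosolic phospholipase A2 on which ANXA1 acts, had 69.0 and 65.1 TPM in libraries labelled sh-ZNF217, against 47.9 and 51.7 TPM in NC (log2 fold change 0.42, limma adjusted p = 0.0201), under the call minimum. LTA4H, PTGS1 and PLA2G15 were not called (log2 fold changes of -0.09, -0.27 and 0.31, limma adjusted p = 0.758, 0.116 and 0.0617).

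For ANXA2 and S100A10 the plasminogen system was read. Of 10 genes listed 6 were tested, 1 was called higher and 0 lower (6.26% and 2.46% of all tested genes), with a median log2 fold change of 0.10. The called gene, SERPINB2, encodes an inhibitor of plasminogen activators. It had 1393 and 1339 TPM in libraries labelled sh-ZNF217, against 829 and 888 TPM in NC, and rose by 0.67 on the log2 scale (limma adjusted p = 0.00328). PLAUR, the urokinase receptor, overlapped between the groups, at 173 and 193 TPM in libraries labelled sh-ZNF217 and 163 and 187 TPM in NC (limma adjusted p = 0.654). PLAU, urokinase itself, had a log2 difference of 0.36 (limma adjusted p = 0.0323), and the plasminogen receptors ENO1 and PLGRKT had -0.04 and 0.13 (limma adjusted p = 0.470 and 0.409).

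For ANXA5, which competes for exposed phosphatidylserine, the genes that move or recognise this lipid were read. Scramblases and flippases had 10 of 14 listed genes tested and 0 called (8.72% of all tested genes), with a median log2 fold change of 0.26. In that group TMEM30A, the flippase subunit, had 125 and 121 TPM in libraries labelled sh-ZNF217, against 92.3 and 93.9 TPM in NC (log2 fold change 0.39, limma adjusted p = 0.0121). ATP11B, a flippase, reached 0.498 (limma adjusted p = 0.0121), and both passed on p but not on fold. ATP11A and ATP8B4 had log2 fold changes of 0.12 and 0.29 (limma adjusted p = 0.408 and 0.0701). Receptors and bridging proteins had 9 of 19 listed genes tested, 3 called higher and 0 lower (6.26% and 2.46% of all tested genes), with a median of 0.23. HAVCR2, or TIM-3, had 12.5 and 16.7 TPM in libraries labelled sh-ZNF217, against 3.97 and 3.93 TPM in NC, and rose by 1.64 on the log2 scale (limma adjusted p = 0.00615). PROS1, the bridging protein S, had 42.0 and 44.5 TPM in libraries labelled sh-ZNF217, against 26.2 and 26.9 TPM in NC, and rose by 0.68 on the log2 scale (limma adjusted p = 0.00725, but 0.0503 without replicate 2 of the libraries labelled sh-ZNF217). ITGAV, the integrin chain of apoptotic cell uptake, was called at 1.12 (limma adjusted p = 0.00806), with an adjusted p of 0.0534 without replicate 1 and 0.0515 without replicate 2 of the libraries labelled sh-ZNF217. CD300LF, CD300A, MFGE8 and TYRO3 were not called, with log2 fold changes of 0.05, 0.41, 0.23 and -0.16.

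Membrane repair proteins act beside annexins at wounds, and 20 of 25 listed were tested. Of them 4 were called higher and 0 lower (6.26% and 2.46% of all tested genes), and the median log2 fold change was 0.27. LGALS3, a lectin that marks damaged endomembranes, had 138 and 117 TPM in libraries labelled sh-ZNF217, against 54.5 and 47.1 TPM in NC, and rose by 1.31 on the log2 scale (limma adjusted p = 0.00411). CAPN2, the catalytic chain of m-calpain, had 227 and 218 TPM in libraries labelled sh-ZNF217, against 132 and 139.6 TPM in NC, and rose by 0.71 on the log2 scale (limma adjusted p = 0.00337). Its regulatory chain CAPNS1 was lower, at 218 and 215 TPM in libraries labelled sh-ZNF217 against 269.7 and 290.1 TPM in NC (log2 fold change -0.37, limma adjusted p = 0.0148), without reaching the call minimum. MYOF, a ferlin, rose by 0.80 (limma adjusted p = 0.00615), with 33.5 and 35.9 TPM in libraries labelled sh-ZNF217 against 19.6 and 19.2 TPM in NC. GSN (gelsolin, which severs actin) was called at 0.57 (limma adjusted p = 0.00929), a call lost without replicate 2 of the libraries labelled sh-ZNF217 (adjusted p = 0.0537) and under plain empirical Bayes (0.0516). PDCD6IP, or ALIX, through which PDCD6 recruits the ESCRT machinery, had 0.23 (limma adjusted p = 0.0378). CHMP4B and CAPN1 had 0.08 and 0.24 (limma adjusted p = 0.342 and 0.0513). CHMP2A had 102 and 103 TPM in libraries labelled sh-ZNF217, against 114 and 120 TPM in NC. Its log2 fold change was -0.18 (limma adjusted p = 0.0849), and it was not called.

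**Figure D5:**
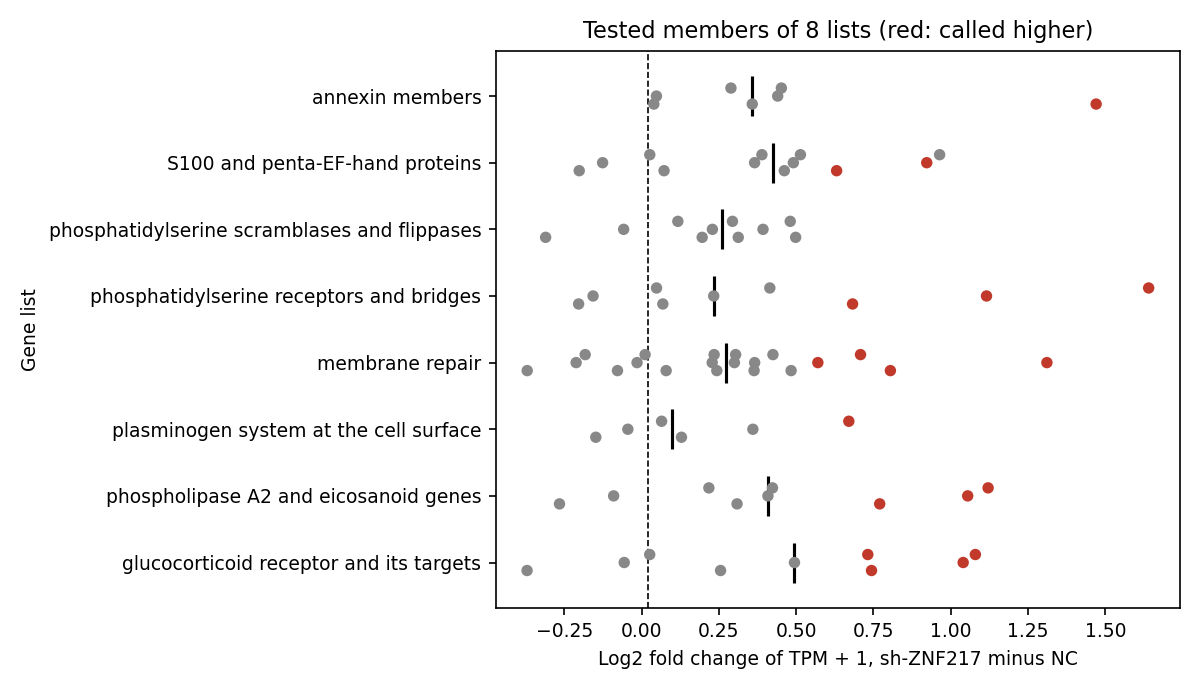
Log2 fold change (libraries labelled sh-ZNF217 minus NC) of every tested member of 8 gene lists, red where called higher, with a bar at each list's median and a dashed line at the median of all tested genes (0.02). Medians run between 0.10 for the plasminogen system and 0.49 for the glucocorticoid receptor and its targets, and the annexins stand at 0.36.

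By Euclidean distance between centred log2(TPM + 1) values over the 4 libraries, the genes most like ANXA1 were TNFRSF9 (distance 0.0615), TNFRSF21 (0.0864) and ITGAM (0.101). TNFRSF9 encodes the costimulatory receptor 4-1BB, TNFRSF21 a death domain receptor and ITGAM the CD11b integrin chain. TNFRSF21 had 103 and 101 TPM in libraries labelled sh-ZNF217 against 38.6 and 37.2 TPM in NC. Those most like ANXA2 were ITM2B (0.0166), NEK6 (0.0173) and CTSC (0.0177), a membrane protein, a mitotic kinase and a lysosomal peptidase. Over 4 libraries in 2 groups such closeness mostly shows a similar difference between the groups. Exons of HAVCR2, S100A13, ATP8B4, CAPN1, PLAU, ENO1 and LTA4H overlap those of another gene in the table, so the values of these genes are uncertain.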

How the data were processed

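The authors deposited 1 table without a named unit, and its values were taken to be TPM because each column sums to 998932 to 999282 and length is divided out. Per the labels and the submitters' processing notes, Trizol RNA was made into TruSeq libraries, with HISAT2 (2.0.5) and hg38 named. The study's methods name a fragment-based measure and DESeq2, while the quantifier, annotation and use of strand were not given in the sources used here. TPM keeps no depth, so no counting interval was given, and abundant genes that rise push the remaining values down. Columns were matched to samples by the NC or ZNF part and the number in their names, and 2 further parts of the names are unexplained.

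Gene names came from GENCODE 44 by Ensembl identifier (16143 of 17656). Genes at 1 TPM or more in at least 2 libraries were tested (14582) on log2(TPM + 1) with limma 3.58.1 in R 4.3.3 (group alone, trended and robust empirical Bayes, Benjamini-Hochberg). On this scale the change of low genes is understated. The procedure was tested on simulated data. Members and lists were chosen with earlier results of these data known. Named genes were the members, all EF-hand proteins, formyl peptide receptors and other annexins, with the 3 genes nearest to ANXA1 and to ANXA2. From each other list up to 6 called genes (smallest p) and up to 4 uncalled ones (highest level) were named. CAPN1 was named beyond that rule. RefSeq held promoters for all 8 members (12 windows). Protein sequences were not used here, and 1 gene was left out of the lists and is not reported here.

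The 12 alternatives were pseudocounts of 0.1 and 5, no filter, a filter at 5 TPM, median-of-ratios scaling, removal of mitochondrially encoded genes, plain empirical Bayes, a replicate block, and leaving out each of the 4 libraries. Plots were made in Python 3.11.15 (matplotlib 3.10.9).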

Additional observations from a re-analysis of the deposited data

How the results depend on the processing

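ANXA1 was called higher under all 12 alternatives (log2 fold change 1.44 to 1.51, limma adjusted p = 0.000191 to 0.0286), and it was the single annexin called in each. ANXA2 stayed at 0.42 to 0.49 and ANXA5 at 0.41 to 0.48, with adjusted p above 0.05 under plain empirical Bayes alone (0.0632 and 0.0624). ANXA11 ranged over 0.26 to 0.46, and its adjusted p fell below 0.05 in 4 alternatives, the lowest being 0.0353. ANXA6 turned to -0.0096 without replicate 2 of the libraries labelled sh-ZNF217, SRI to -0.043 without it, and S100B to -0.29 without replicate 1 of those libraries and to -0.034 without NC replicate 1. Over the left-out libraries the highest values were 0.106 for ANXA6, 0.19 for SRI and 0.34 for S100B. None of these 3 genes was called under any alternative.

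Changed genes numbered 1272, against 723 under plain empirical Bayes and 461 to 1041 with 1 library left out (470 and 461 without either library labelled sh-ZNF217). The partner and pathway lists held 18 calls, all higher, of 79 genes tested (6.26% of all tested genes were called higher), against 11 to 20 with 1 library left out (11 without replicate 2 of the libraries labelled sh-ZNF217). The same lists held 22 calls without mitochondrially encoded genes and 15 under plain empirical Bayes. Those lists were chosen with earlier results of these data known, so their share of calls is no test of them. The log2 ratio of the annexin sums was 0.47, against 0.501 without mitochondrially encoded genes and 0.439 under median-of-ratios scaling. With 1 library left out that ratio was 0.448 to 0.484. The median of all genes moved by less than 0.1 under either scaling. The cause of these differences was not tested. Of the other listed genes, 30 were followed gene by gene. They were the tested EF-hand proteins and formyl peptide receptors, ANXA2P2 and the called genes of the other lists. Uncalled genes of those other lists were not followed, so calls gained by them are missing from the counts below. Of 356 values of other listed genes under the alternatives, 320 kept direction and side of the threshold, 26 lost the call, 7 gained it (S100A6, S100P, S100A12 and FPR2) and 3 turned sign.

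Over all tested genes, same-numbered libraries did not deviate together (correlation -0.00534). A single value over all genes cannot exclude a batch shared by same-numbered libraries that touches only some genes. With the replicate block 1049 genes, 17 listed partner genes and 1 annexin were called, and ANXA1 stayed at 1.47. S100A12 was called only in that fit (adjusted p = 0.0457) and without NC replicate 1 (1.59 on the log2 scale), and PTGS2 and DUSP1 were lost with the block (0.0675 and 0.0773). With 2 libraries a group and depth unknown, a missed threshold does not show that levels were alike.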

Other observations

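ANXA2R, which encodes a surface protein described as a receptor for annexin A2, was chosen after its values were seen. It had 17.7 and 17.3 TPM in libraries labelled sh-ZNF217, against 22.0 and 22.7 TPM in the NC libraries, a log2 fold change of -0.33 that did not pass the test (limma adjusted p = 0.0553). Both libraries labelled sh-ZNF217 were below both NC libraries, while ANXA2 was higher in them.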
